A study of Mus musculus with 4 samples.

Results

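Tetraspanins are membrane proteins that cross the bilayer 4 times and gather integrins, immunoglobulin-superfamily proteins and proteases into membrane microdomains. In fibroblasts they are known for roles in adhesion, migration and the traffic of cell surface proteins. Their RNAs are translated at the endoplasmic reticulum, like those of other multi-pass membrane proteins. The RNAs of Cd9, Cd63, Cd81, Cd82, Cd151, Tspan3, Tspan4, Tspan6 and Tspan9 were followed here, using all probe sets that the platform annotation gives exactly 1 of these 9 symbols. Of 45101 probe sets, 16 met this rule and belonged to 8 of the 9 genes. Cd63, a tetraspanin of late endosomes and lysosomes, had none and was not analysed here. Cd9, Cd81, Tspan3 and Tspan4 had 1 probe set each, Cd82, Tspan6 and Tspan9 had 2 each, and Cd151 had 6. All 16 lay in the brighter part of the array that was tested, namely the 22519 probe sets with a mean log2 signal at or above the median.

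The samples were pseudopodia and cell bodies of NIH/3T3 cells, an established mouse fibroblast line, with 2 arrays per fraction (replicates 1 and 2). Every sample came from cells starved of serum overnight, spread for 2 h on a fibronectin-coated porous membrane and exposed for 1 h to 150 ng/ml lysophosphatidic acid (LPA), a phospholipid that stimulates migration, in the chamber below. Pseudopodia were the parts that had grown through the pores and were scraped from the underside, and cell bodies were the parts left on the upper side. No unstimulated cells are analysed here, so the comparison is between 2 parts of stimulated cells and asks which RNAs are relatively enriched in protrusions. The submitters call the samples independent but do not describe separate cultures. The p-values therefore reflect only how these 4 samples vary, which may be technical.

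Values are MAS5 signals, in arbitrary units scaled to the same mean on each array, taken without the 2% of values at each end. A difference therefore compares signal relative to that mean and not amounts per cell. In such bulk samples fewer cell parts and less RNA per part cannot be told apart. A difference is the mean of log2(scaled signal + 32) in pseudopodia minus that in cell bodies, ± the standard error from limma (2 arrays in each fraction). The limma test with Benjamini-Hochberg adjustment over 22519 probe sets called 243 probe sets higher and 747 lower in pseudopodia at an adjusted p of at most 0.05. After median centring the split was 385 higher and 472 lower, and after scaling on hybridization controls 54 higher and 1510 lower, with the median over the probe sets at 0.13 and -0.32, against -0.03 in the reported fit. Of 9 fibroblast markers 8 were above the median signal, the exception being Thy1, as were 0 of 4 blood, 3 of 5 epithelial and 1 of 4 endothelial markers. The ratio of the 3' to the 5' control probe set of beta-actin, a sign of RNA integrity, was 1.77 and 3.41 in pseudopodia, against 1.55 and 1.89 in cell bodies. The same ratio for Gapdh was nearly equal, at 0.96 and 1.01 in pseudopodia, against 0.92 and 0.95 in cell bodies. The part of RNA integrity in the tetraspanin values below was not tested.

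Most of the 16 probe sets had less signal in pseudopodia than in cell bodies, although few passed the test. Cd9 and Tspan3 were called lower in pseudopodia, and no tetraspanin probe set was called higher. These 2 of 16 probe sets are 12.5% of those of the listed genes, which were chosen with earlier results of these data known. Of all probe sets tested, 3.32% were called lower and 1.08% higher. In 11 of the 16 (68.8%) both pseudopodia arrays were below both cell body arrays, against 28.2% of all probe sets. In 1 of the 16 they were above, against 24.7% of all. Taking each gene by its brightest probe set, 7 of 8 genes had both pseudopodia arrays below, against 25.2% of 10962 genes, and the median difference of the 8 was -0.78, against 0.01 over all genes. The median was -0.81 in the replicate 1 pair and -0.68 in the replicate 2 pair. Measured from the median gene of each setting, it stayed between -0.84 and -0.75 under the 9 other ways of scaling, filtering and fitting, and between -0.87 and -0.72 when 1 array was left out.

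**Figure D1:**
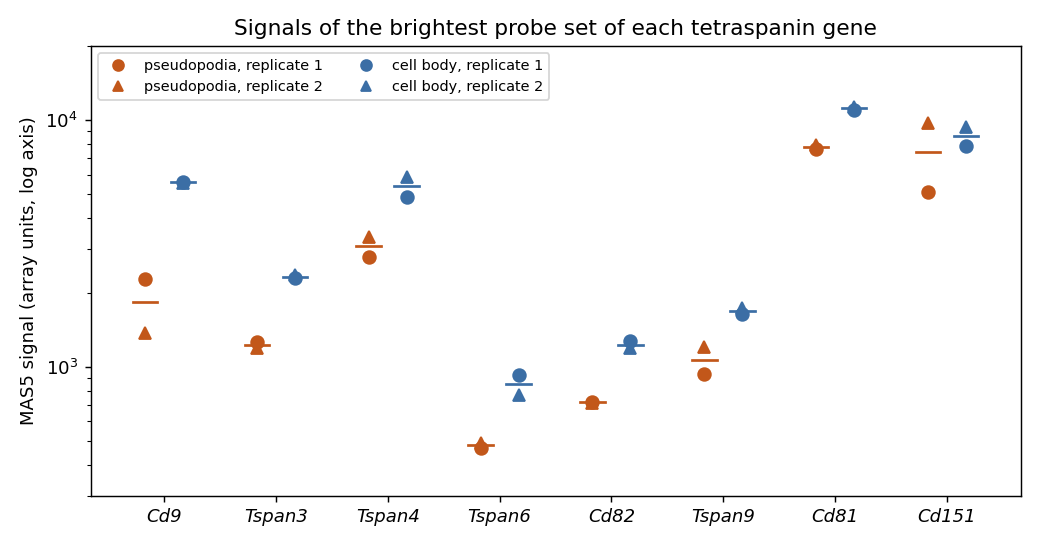
MAS5 signal (log axis, array units) of the brightest probe set of each of 8 tetraspanin genes, with pseudopodia (orange) left of cell bodies (blue), circles for replicate 1, triangles for replicate 2 and lines for the means of 2 arrays. In every gene except Cd151 both pseudopodia points lie below both cell body points. Heights are not comparable between genes.

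The number of calls depended on the variance model and on single arrays. With the replicate number as a block (same-numbered arrays shared an experiment code and a scan day), 8 of the 16 tetraspanin probe sets were called lower and none higher, against 11.3% and 6.84% of all. That fit leaves 1 residual degree of freedom and rests mostly on a spread shared across probe sets, as do the fits without 1 array. The reported fit leaves 2, against 5.56 from the shared spread, so its p-values also rest mostly on that spread. A fit without 1 array also assumes that the lone array varies like the other fraction. Without the variance trend, or without cell body replicate 1 or cell body replicate 2, limma called none of all probe sets. In these fits 8, 5 and 6 of the 16 tetraspanin probe sets had an unadjusted p under 0.05, where 19.9%, 11.1% and 13.1% of all probe sets did, and in the reported fit 9 did, where 22.0% of all did. Without pseudopodia replicate 1 it called 7 of the 16 lower (11.8% of all), and without pseudopodia replicate 2 it called 8 (9.56% of all).

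Cd9, which takes part in cell fusion and migration and binds immunoglobulin-superfamily partners and integrins, had the largest difference of the 8 genes. Its probe set (1416066_at) had signals of 2267.1 and 1376.6 in pseudopodia, against 5604.0 and 5570.7 in cell bodies. The cell body arrays were nearly equal, the pseudopodia arrays differed from each other, and the groups did not overlap. The difference was -1.65 ± 0.24 (limma adjusted p = 0.0238), which is 3.14 times as much signal in cell bodies. It was -1.30 in the replicate 1 pair and -2.0 in the replicate 2 pair, and only 42 of 10962 genes had a lower value. The adjusted p was 0.0535 without the filter on dim probe sets, 0.0845 without the variance trend, and 0.245 and 0.217 without cell body replicate 1 and without cell body replicate 2, while the difference lay between -2.01 (without pseudopodia replicate 1) and -1.30 (without pseudopodia replicate 2).

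The gap between Cd9 and the other tetraspanins is nearly free of the scaling of arrays, since a factor common to an array cancels between bright genes. In the replicate 1 pair the difference of Cd9 was lower than those of all 7 other genes, by -0.34 (Tspan6) to -0.78 (Cd81). In the replicate 2 pair it was again lower than all 7, by -1.04 (Tspan3) to -2.07 (Cd151). This contrast between genes was not tested. Among the 21 pairs of the remaining 7 genes, 14 had the same order in both replicate pairs. Cd81 and Cd151 were less reduced than Cd82, Tspan3, Tspan4, Tspan6 and Tspan9 in both replicate pairs. The gap of Cd81 to Tspan9 was only 0.01 in the replicate 2 pair. Cd82, Tspan3, Tspan4, Tspan6 and Tspan9 are not firmly ordered among themselves, nor are Cd81 and Cd151.

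Tspan3, a widely expressed member of the family, was the second gene called lower. Its probe set (1416009_at) gave 1254.8 and 1196.6 in pseudopodia, against 2291.7 and 2344.4 in cell bodies, and replicates within each fraction were close. The difference was -0.91 ± 0.18 (limma adjusted p = 0.0386). The replicate pairs gave -0.86 and -0.96. After median centring it was -0.75 and no longer called (adjusted p = 0.0660), as without the filter (adjusted p = 0.0655), without the variance trend (adjusted p = 0.117), and without cell body replicate 1 (adjusted p = 0.327) or cell body replicate 2 (adjusted p = 0.298).

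Tspan4, a marker and organizer of migrasomes, the vesicles left on retraction fibres of migrating cells, narrowly missed the threshold. Its probe set (1448276_at) had signals of 2794.6 and 3355.4 in pseudopodia, against 4869.9 and 5904.9 in cell bodies, without overlap. The difference was -0.81 ± 0.18 (limma adjusted p = 0.0544), and the replicate pairs gave -0.80 and -0.81. The 95% interval ran from -1.23 to -0.38. Tspan4 was called lower with the replicate block (adjusted p = 0.000726), after quantile normalization (adjusted p = 0.0311), on hybridization controls (adjusted p = 0.0175) and with a larger pseudocount (adjusted p = 0.0473). It was not called after median centring (adjusted p = 0.116), without the filter (adjusted p = 0.122) or without the variance trend (adjusted p = 0.158). With 1 array left out, the difference lay between -0.94 and -0.67.

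Cd82, known in human tumours as a suppressor of metastasis, and Cd81, a subunit of the B cell co-receptor complex and a partner of immunoglobulin-superfamily proteins, had tight replicates and did not pass. The brighter Cd82 probe set (1416401_at) gave 719.6 and 715.0 in pseudopodia, against 1269.2 and 1190.6 in cell bodies. Its difference was -0.76 ± 0.19 (limma adjusted p = 0.0671, 95% interval -1.21 to -0.32). The dimmer one (1449611_at) overlapped between fractions, with 121.6 and 102.3 in pseudopodia, against 72.2 and 130.9 in cell bodies. Its difference was 0.16, with 0.64 and -0.31 in the replicate pairs, so it gave no clear direction. The 95% interval of -0.58 to 0.91 overlapped that of the brighter probe set. Cd81 (1416330_at) gave 7659.7 and 7946.4 in pseudopodia, against 11009.4 and 11311.4 in cell bodies. This difference of -0.52 ± 0.14 was nearly the same in the replicate pairs (-0.52 and -0.51; limma adjusted p = 0.0781, 95% interval -0.84 to -0.19). With the replicate block both Cd81 and the brighter Cd82 probe set were called lower (adjusted p = 0.00722 and 0.00651), as on hybridization controls (adjusted p = 0.0261 and 0.0436). Quantile normalization called Cd81 (-0.81, adjusted p = 0.0221) but not Cd82. Neither gene was called after median centring, without the filter or without the variance trend. Leaving out pseudopodia replicate 1 or pseudopodia replicate 2 put the brighter Cd82 probe set at -0.77 and -0.76.

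Tspan6, which in human cells has been described as a brake on RIG-I-like receptor signalling, had both of its probe sets below the cell body level. The brighter one (1448501_at) gave 467.8 and 491.3 in pseudopodia, against 924.0 and 770.4 in cell bodies, a difference of -0.80 ± 0.21 (limma adjusted p = 0.0759). The dimmer one (1416872_at) gave 334.1 and 184.8, against 389.2 and 338.9, with -0.52 ± 0.30 (adjusted p = 0.365). Both were without overlap, but the pseudopodia arrays of the dimmer probe set were far apart. Tspan9, known from platelets, was also without overlap on its brighter probe set (1428197_at), with 931.7 and 1199.3 in pseudopodia, against 1641.1 and 1722.8 in cell bodies, and a difference of -0.66 ± 0.20 (limma adjusted p = 0.112). Its dimmer probe set (1441968_at) gave 75.3 and 31.6, against 159.3 and 113.3, and -1.19 ± 0.38 (adjusted p = 0.119). With the replicate block the brighter probe set of Tspan6 and both of Tspan9 were called lower, with adjusted p of 0.00861, 0.0126 and 0.0110. The brighter Tspan6 probe set was also called without pseudopodia replicate 1 or pseudopodia replicate 2 (adjusted p = 0.0301 and 0.0266), and on hybridization controls, as was the brighter one of Tspan9 (adjusted p = 0.0486 and 0.0411). The dimmer probe sets of Tspan6 and Tspan9 were called without pseudopodia replicate 1, at -0.92 and -1.66 (adjusted p = 0.0187 and 0.00175), but stood at -0.12 and -0.72 without pseudopodia replicate 2 (adjusted p = 0.841 and 0.175). The brighter one of Tspan9 stood at -0.84 without pseudopodia replicate 2. No probe set of Tspan6 or Tspan9 was called after quantile normalization, after median centring, without the filter or without the variance trend.

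Cd151, which binds laminin-binding integrins, was the one gene whose brightest probe set overlapped between the fractions. That probe set (1437670_x_at) gave 5113.7 and 9782.5 in pseudopodia, against 7873.9 and 9376.9 in cell bodies. The lowest and the highest of the 4 values were both from pseudopodia. The difference was -0.28 ± 0.29 (limma adjusted p = 0.620, 95% interval -0.95 to 0.39), with -0.62 in the replicate 1 pair and 0.06 in the replicate 2 pair. Without pseudopodia replicate 1 it was 0.19 (adjusted p = 0.567), and without pseudopodia replicate 2 it was -0.75 and called (adjusted p = 0.0107).

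The other 5 probe sets of Cd151 did not have 1 direction either. The next 3 by brightness stood at -0.25 (1456085_x_at), -0.44 (1424093_x_at) and -0.36 (1451232_at), with limma adjusted p from 0.283 to 0.523, and each was nearer to 0 in the replicate 2 pair. The middle one of these was called lower without pseudopodia replicate 2 (-0.71, adjusted p = 0.0198) and stood at -0.16 without pseudopodia replicate 1 (adjusted p = 0.653). The second dimmest (1427525_at) went the other way, with 103.3 and 117.4 in pseudopodia, against 54.1 and 49.0 in cell bodies, without overlap. Its difference was 0.90 ± 0.28 (limma adjusted p = 0.112), positive in both pairs at 0.77 and 1.04. The dimmest (1420921_at) stood close to the limit for inclusion, at -0.44 ± 0.55, with overlapping groups. Probe sets with _x_ in their name can share probes with other transcripts, and where the probe sets lie in the gene was not analysed here.

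**Figure D2:**
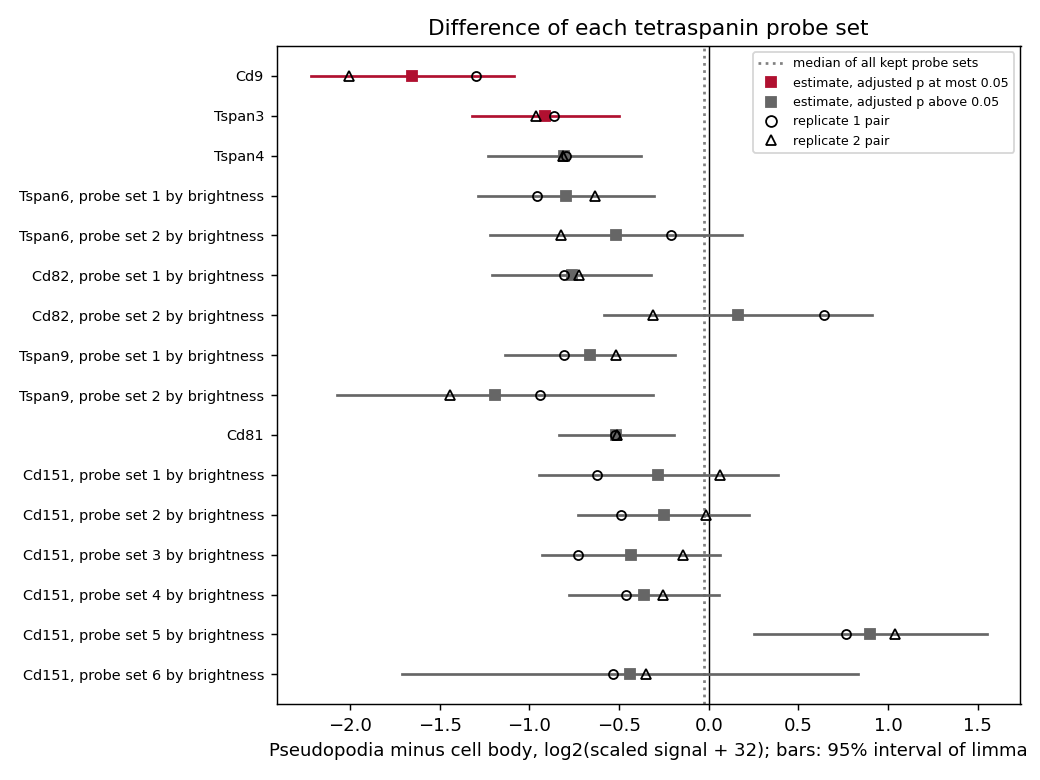
Pseudopodia minus cell body difference on the log2(scaled signal + 32) scale for all 16 probe sets, with squares for the limma estimate, bars for its 95% interval, and open circles and triangles for the replicate 1 and replicate 2 pairs. Only Cd9 and Tspan3 (red) had an adjusted p of at most 0.05, and 14 of 16 estimates lie below 0, the exceptions being 1 dim probe set each of Cd82 and Cd151.

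Among other members of the family fewer were bright enough to test. Of 22 other tetraspanin genes, 21 had a probe set with 1 symbol and 10 were tested. None of the 10 was called in either direction by limma (4 at an unadjusted p under 0.05, as were 22.0% of all probe sets), against 2.52% of genes called lower and 1.3% called higher. Their median difference was -0.18, with -0.21 in the replicate 1 pair and -0.55 in the replicate 2 pair, and 8 of 10 were below 0, against 48.8% of genes. Leaving out pseudopodia replicate 1 or pseudopodia replicate 2 moved this median to -0.36 and -0.20. Without cell body replicate 1 or cell body replicate 2 it was -0.35 and -0.30. The median also depended on dim genes. Testing only the 11260 brightest probe sets left the median of the 8 listed genes at -0.78. That stricter filter kept 6 of these 10 other genes, and their median was -0.49, nearer to that of the listed genes. The brightest was Tspan31, with 6016.7 and 6148.2 in pseudopodia, against 8048.7 and 8801.3 in cell bodies, and a difference of -0.47 ± 0.15 (adjusted p = 0.116). Tspan14, which escorts the protease Adam10 to the cell surface, stood at -0.97 ± 0.27 (adjusted p = 0.0836), and Tspan11 at -0.82 ± 0.20 (adjusted p = 0.0600). Tspan17, another escort of Adam10, was above 0 at 0.28 ± 0.19 (adjusted p = 0.427). These last 3 were chosen after their values were seen. Those called lower numbered 3 of 10 with the replicate block, 2 without pseudopodia replicate 1, 1 without pseudopodia replicate 2, 1 of 11 after quantile normalization and 2 of 11 on hybridization controls, where 11.3%, 11.8%, 9.56%, 2.45% and 6.71% of all probe sets were.

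Among 25 known partners of tetraspanins, 23 were tested, and 2 were called lower and none higher. Over all genes 2.52% were called lower and 1.3% higher. These were the related immunoglobulin-superfamily proteins Ptgfrn and Igsf8, both known to bind Cd9 and Cd81 directly. Ptgfrn had signals of 970.0 and 763.0 in pseudopodia, against 2289.5 and 2217.4 in cell bodies, and a difference of -1.37 ± 0.20 (limma adjusted p = 0.0238). Igsf8 had 495.9 and 387.2 in pseudopodia, against 1110.6 and 891.8 in cell bodies, and -1.15 ± 0.23 (adjusted p = 0.0410). The groups did not overlap in either gene, although the dimmer probe set of Ptgfrn stood at -0.73 and did not pass (adjusted p = 0.184). No partner was called without the variance trend. With the replicate block 12 were called lower and 1 higher, where 11.3% and 6.84% of all probe sets were. On hybridization controls 4 were called lower, where 6.71% of all probe sets were.

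The median of the 23 partners was -0.53 (-0.61 and -0.43 in the replicate pairs), and in 12 of them both pseudopodia arrays were below both cell body arrays, against 25.2% of genes. The laminin-binding integrin chains Itga3 and Itga6 and the common chain Itgb1, named after their values were seen, stood at -0.94, -0.89 and -0.88 on their brightest probe sets (adjusted p = 0.0917, 0.0830 and 0.0651). Besides these brightest probe sets, 4 dimmer ones of partners were called, all lower. Of all probe sets tested 3.32% were called lower. The share among the dimmer probe sets of partners was not computed, so the 4 cannot be set against that percentage. The 4 were 1 of Itgb1 (-1.78 ± 0.34, adjusted p = 0.0386), 1 of the membrane protease Mmp14 (-1.51 ± 0.31, adjusted p = 0.0442) and 2 of Itga5, a chain of the fibronectin receptor (-1.99 and -2.11, adjusted p = 0.0272 and 0.0276). Both of Itga5 were dim, at 50.5 and 60.9 and at 30.1 and 15.7 in pseudopodia. The brightest probe sets of Mmp14 and Itga5 did not pass, at -0.60 ± 0.20 and -1.48 ± 0.56 (limma adjusted p = 0.131 and 0.174). The list was not uniform, with 15 of the 23 below 0 and 8 above. Its brightest member, Ifitm2, an interferon-induced membrane protein, stood at 0.00 ± 0.17. The cytoskeletal linkers Ezr and Msn stood at 0.03 and 0.04, with dimmer probe sets at 0.85 and -1.04 that did not pass. Their relative Rdx stood at 0.93 ± 0.25 (adjusted p = 0.0784), with dimmer probe sets at 0.14 and -0.29. Zdhhc2 stood at 0.54 ± 0.30 (adjusted p = 0.346), with dimmer probe sets at 0.52, 0.55 and 0.51. Ezr, Msn, Rdx and Zdhhc2 were also named after their values were seen.

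Factors of endosomal sorting and exosome release, where tetraspanins serve as cargo and markers, had mostly positive values on their brightest probe sets. Of 27 genes, 26 were tested, none was called by limma, and 19 were above 0. Dimmer probe sets did not always share that sign. Those of Lamp2, Rab7, Rab11a and Flot2 were below 0 although the brightest was above, while that of Chmp4b was also above 0. These genes were named after their values were seen. At an unadjusted p under 0.05 were 7 of the 26, a share near the 22.0% of all probe sets. In 14 of the 26 both pseudopodia arrays were above both cell body arrays, against 27.4% of genes. Their median was 0.28 and, on hybridization controls, where the median gene stood at -0.29, it was -0.03. The brightest, Lamp1, a membrane protein of lysosomes, gave 8624.3 and 9654.0 in pseudopodia, against 10255.2 and 10460.9 in cell bodies, and a difference of -0.18 ± 0.14 (adjusted p = 0.504). Called higher were 4 with the replicate block, 3 without pseudopodia replicate 1 and 1 without pseudopodia replicate 2, where 6.84%, 5.79% and 3.3% of all probe sets were, with none of the list lower in these fits. The difference between this list and the tetraspanins was not tested.

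**Figure D3:**
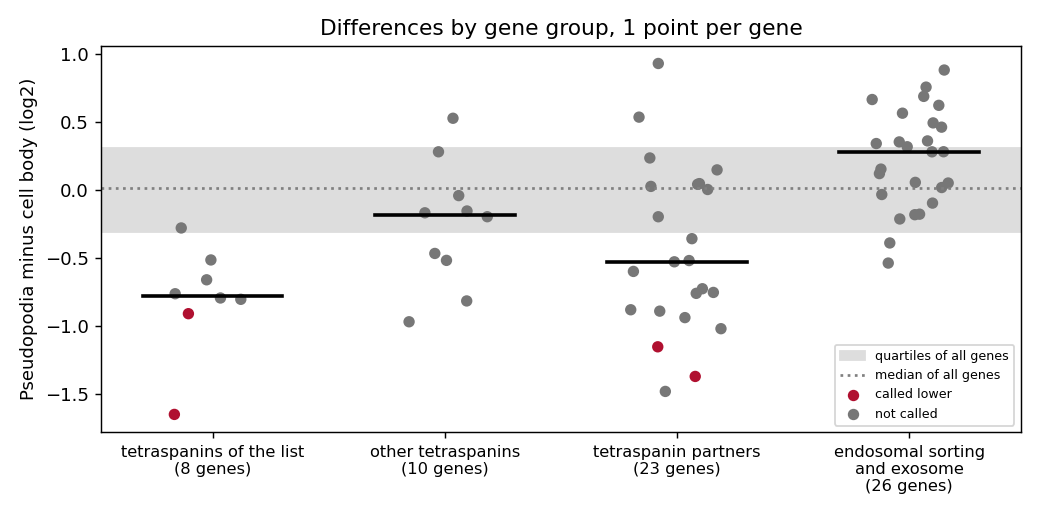
Pseudopodia minus cell body difference (log2) of the brightest probe set of each gene in 4 groups, with black lines for group medians and a grey band between the quartiles of all 10962 genes. The medians are -0.78 for the 8 tetraspanins, -0.18 for 10 other tetraspanins, -0.53 for 23 partners and 0.28 for 26 endosomal sorting factors. That of the other tetraspanins is -0.36 to -0.20 when 1 array is left out. It is -0.49 for the 6 kept when only the 11260 brightest probe sets are tested. The genes called lower are red.

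**Figure D4:**
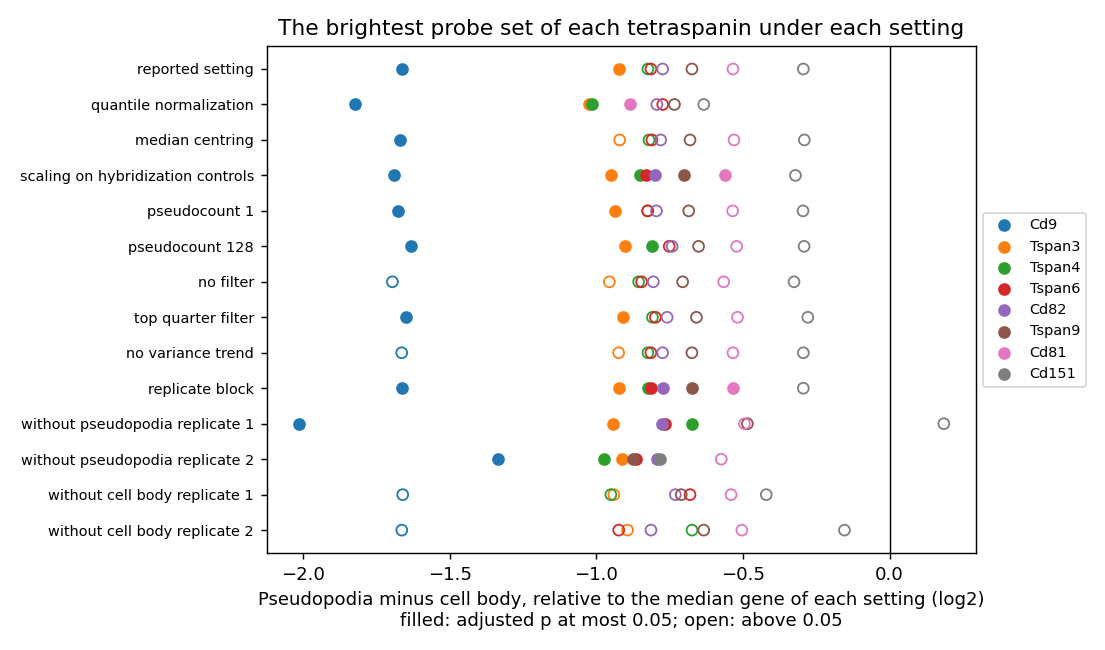
Difference of the brightest probe set of each of 8 tetraspanin genes, measured from the median gene of each setting (log2), with filled points for an adjusted p of at most 0.05 and open points above it. Cd9 lies farthest below 0 in all 14 settings drawn, and Cd151 lies above 0 only without pseudopodia replicate 1, at 0.19 before the median gene is subtracted.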

How the data were processed

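The deposited value table holds linear MAS5 intensity values, 1 for each probe set and array, according to the submitters' processing notes as deposited. MAS5 version, scaling target and detection calls are not given in the sources used here. The values had a trimmed mean of 250.0 on every array (2% trimmed at each end), so the authors had scaled the arrays. Cells were fixed in 0.3% formaldehyde for 10 min, and crosslinks were reversed before RNA isolation, per the labels' protocols. The number of arrays limits the precision.

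Each array was multiplied to reach a trimmed mean of 500, and log2(signal + 32) was taken, which understates changes of dim probe sets. Of 45037 probe sets that are not controls, the 22519 with a mean log2 value at or above the median were tested with limma 3.58.1 in R 4.3.3 (lmFit, eBayes with a variance trend, two-sided, Benjamini-Hochberg over all tested). Per the file headers, same-numbered arrays were scanned on 1 day, and the design text gives them 1 experiment code, so the numbers pair the arrays. Replicate 2 minus replicate 1 correlated between fractions with r = 0.243 across probe sets. Genes stand by their brightest probe set.

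The test was run on simulated data for this comparison, with 22519 probe sets of which 200 were altered. It called 3.0% of those altered by 1 log2 unit and 51.1% of those altered by 2. The share of false calls was 7.04%, at the adjusted p of at most 0.05 used here. The reported fit called 243 probe sets higher and 747 lower, more than the 200 altered in the simulation. The shares found depend on the number altered, so they need not hold for the real data.

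Named genes are all members, the called members of each gene list (at most 4), the brightest member of each, and others marked as chosen after their values were seen. Members and lists were chosen with earlier results of these data known. Alternatives covered scaling, pseudocount, filter, variance trend, replicate block and leaving out each array.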

Additional observations from a re-analysis of the deposited data

How the results depend on the processing

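Of 204 values of the 16 tetraspanin probe sets under 13 alternatives, 164 kept direction and side of the threshold, 9 lost the call, 25 gained one and 6 changed sign. The sign changes were all in probe sets that did not pass. Leaving out 1 array at a time, the dimmer probe set of Cd82 ranged from -0.20 to 0.53 (-0.12 on hybridization controls), and 3 of Cd151 ranged from -1.03 to 0.15, -0.75 to 0.19 and -0.53 to 0.03, with another value of 0.06 above 0 on the dimmest. Tetraspanin probe sets called lower numbered 2 as reported, 4 after quantile normalization, 1 after median centring, 7 on hybridization controls, 0 without the filter or without the variance trend (9 and 8 at an unadjusted p under 0.05 by limma), and 8 with the replicate block. None was called higher under any of them. Over all probe sets, 243 were higher and 747 lower as reported, 385 and 472 after median centring, 54 and 1510 on hybridization controls, 39 and 137 without the filter, 0 and 0 without the variance trend (4487 at an unadjusted p under 0.05), and 1541 and 2546 with the replicate block. With a pseudocount of 1, 161 were higher. Leaving out 1 array at a time gave 0 to 8 tetraspanin probe sets lower, and 0 to 1304 higher and 0 to 2652 lower over all. Such a fit assumes that the lone array varies like the other fraction. The cause of these changes was not tested.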
